A study of Mus musculus with 22 samples.

Results

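The 10 genes described here encode factors of the pluripotency network of mouse embryonic stem cells: Pou5f1, Nanog, Sox2, Klf4, Esrrb, Zfp42, Tfcp2l1, Prdm14, Dppa3 and Lin28a. They were chosen by name, as 10 of the 21827 protein-coding genes of the basic set of GENCODE M21. For each gene the promoter was the window of 1 kb on either side of any protein-coding transcription start site, and a peak counted as a promoter peak when it touched that window by at least 1 bp. The assay was ChIP-seq, the sequencing of DNA immunoprecipitated with a chromatin protein or histone mark, on embryonic stem cells kept in serum and LIF, the cytokine that holds them in self-renewal. Of the 22 samples of the series in 12 groups, 14 libraries stand behind the 7 peak lists used here, and 8 were not analysed here. The wild-type lists were MTF2, EZH2, H3K27me3 and H3K4me3 from E14 cells. The mutant lists were EZH2, H3K27me3 and H3K4me3 from cells labelled Mtf2 GT/GT, which carry a gene-trap cassette in both copies of Mtf2 and are called gene-trap cells below. All groups share the serum and LIF medium. No list of MTF2 in gene-trap cells was used here, so the loss of MTF2 could not be checked, and although the description of the gene-trap libraries mentions E14, their cell line entry is Mtf2 GT/GT with no parental line, so genotype and line cannot be told apart.

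MTF2 is a Polycomb-like protein found in some forms of Polycomb repressive complex 2 (PRC2), whose enzyme, EZH2, methylates histone H3 to give H3K27me3, a mark found mostly at silent or poised developmental genes. H3K4me3 marks active and poised promoters, and at genes that define a cell's identity it is known to form unusually broad domains. In embryonic stem cells the products of Pou5f1 (also called Oct4), Sox2 and Nanog bind each other's genes and those of Klf4, Esrrb, Tfcp2l1 and Prdm14. Parts of this circuit are switched down as cells leave the naive state.

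Each list stands for both libraries of its group, so every value below is a single called value per genotype with no error between replicates, and no test compared the genotypes. The lists hold positions without heights or counts, and the depth of the libraries is unknown. The wild-type lists held 6357 peaks for MTF2, 7213 for EZH2, 6294 for H3K27me3 and 27418 for H3K4me3, and the gene-trap lists 840 for EZH2, 963 for H3K27me3 and 26960 for H3K4me3. The gene-trap H3K4me3 list covered 81.8% of the bases of the wild-type list, 52.6 Mb against 64.3 Mb. This lies beside every H3K4me3 length given here, and its part in those lengths was not tested.

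H3K4me3 peaks lay at all 10 promoters in wild-type cells, where 65.5% of all protein-coding genes had such a peak, and at all 10 in gene-trap cells, where 66.1% did. Of all genes with the wild-type peak, 98.8% also had the gene-trap peak. MTF2 peaks lay at 2 of the 10 promoters, Esrrb and Prdm14, against 15.9% of all genes. EZH2 peaks lay at the same 2 genes, against 16.6%. H3K27me3 peaks lay at Esrrb, Prdm14 and Dppa3, 3 of the 10, against 19.3%. With so few genes these counts are near the background. No wild-type peak of MTF2, EZH2 or H3K27me3 touched the other 7 promoters, those of Pou5f1, Nanog, Sox2, Klf4, Zfp42, Tfcp2l1 and Lin28a. Of all genes 79.5% had none.

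In gene-trap cells no EZH2 peak lay at any of the 10 promoters, and 0.733% of all genes had such a peak. Of all genes with a wild-type EZH2 promoter peak, 95.8% had none in gene-trap cells, so that the absence at both Esrrb and Prdm14 is the common outcome. H3K27me3 was still called at 1 of the 10 promoters, Esrrb, against 2.68% of all genes. Of all genes with wild-type H3K27me3 at the promoter, 13.7% still had a peak in gene-trap cells. All 3 genes with H3K27me3 also had H3K4me3 at the same promoter in wild-type cells, the combination called bivalent, which 18.3% of all genes had.

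**Figure D1:**
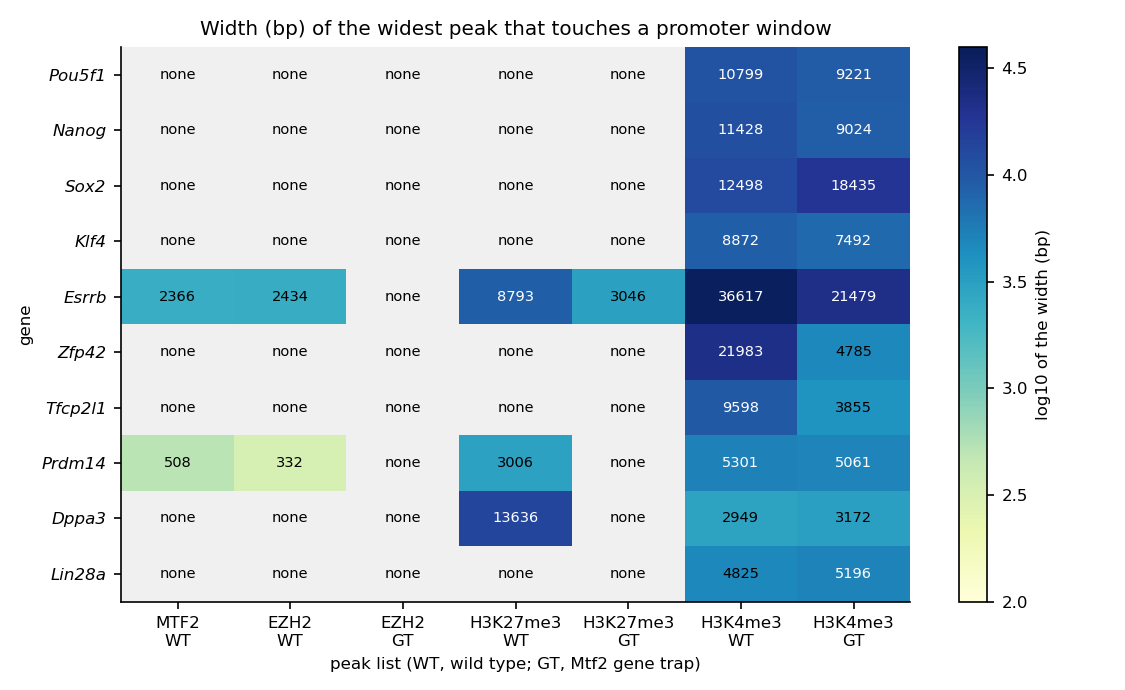
Width in bp of the widest peak that touches a promoter window, for the 10 genes (rows of the grid) and the 7 peak lists (columns; WT, wild type; GT, Mtf2 gene trap); darker cells are wider on a log10 scale and grey cells have no peak. H3K4me3 fills both of its columns, while MTF2, EZH2 and H3K27me3 appear only at Esrrb, Prdm14 and Dppa3, and of the EZH2 and H3K27me3 lists of gene-trap cells only H3K27me3 at Esrrb, 3046 bp, has a peak.

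Wide H3K4me3 domains were a common feature of these genes. The widest promoter peak had a median width of 10198 bp over the 10 genes in wild-type cells and 6344 bp in gene-trap cells, against 2469 and 2198 bp over all genes with a promoter peak. In wild-type cells 7 of the 10 peaks were above the 90th percentile over all such genes (6128 bp), and in gene-trap cells 8 were (4604 bp). The limit was set within each genotype and was lower in gene-trap cells, so these counts do not compare widths between genotypes. The trait is shared with the 25 network partners described below, of which 18 were above the limit in wild-type and 21 in gene-trap cells. The peak was narrower in gene-trap cells at 7 of the 10 genes, and at 71.6% of all genes with a peak in both genotypes. Lin28a, at 4825 bp, and Prdm14, at 5301 bp, lay below the wild-type limit, and Dppa3 had the narrowest peak of the 10, at 2949 bp.

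The total length of H3K4me3 peaks within 20 kb of a start site ranged in wild-type cells from 5301 bp at Prdm14 to 30933 bp at Esrrb. In gene-trap cells it ranged from 5061 bp at Prdm14 to 27841 bp at Esrrb. The joined windows around all start sites of a gene spanned 120242 bp at Esrrb and 40001 to 40080 bp at the other genes. The length was shorter in gene-trap cells at 8 of the 10 genes and longer at 2, Dppa3 and Sox2, though the direction at Pou5f1, Sox2 and Lin28a turned with the window or the peaks counted. It was shorter at 70.6% of all genes with some H3K4me3 in wild-type cells. The median ratio of gene-trap to wild-type length was 0.927 over the 10 genes and 0.899 over all genes, a shift of all genes of -0.15 on the log2 scale. A ratio of 1.5 in either direction was taken as a call: 2 of the 10 genes were lower, Zfp42 and Tfcp2l1, against 16.6% of all genes, and none was higher, against 4.26%. No gene lay close to this limit: Tfcp2l1, at a ratio of 0.426, was the nearest called gene and Nanog, at 0.825, the nearest uncalled one on that side. Divided by the median ratio of all genes, the ratios of Zfp42 and Tfcp2l1 were 0.298 and 0.473, and those of the other 8 genes ran from 0.917 to 1.21.

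**Figure D2:**
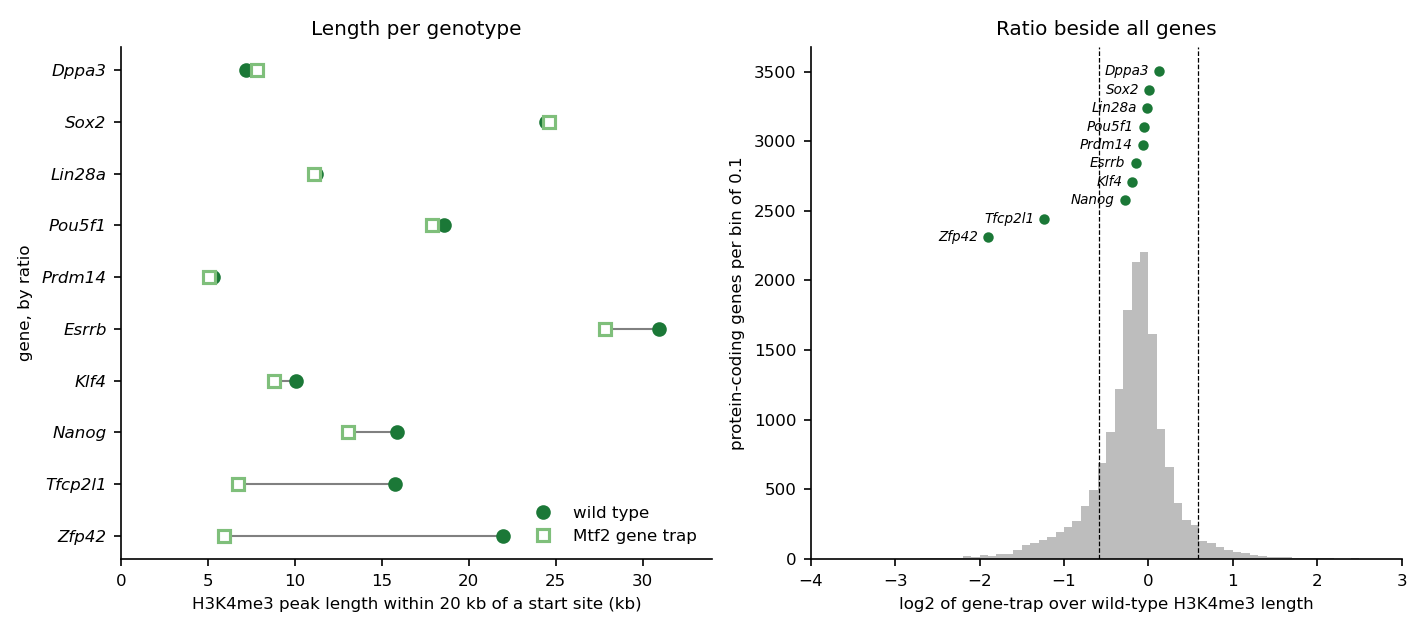
Left, length in kb of H3K4me3 peaks within 20 kb of a start site for each of the 10 genes, in wild-type (filled circles) and gene-trap cells (open squares), 1 list per genotype. Right, log2 of the ratio of the lengths (gene trap over wild type) for all protein-coding genes with H3K4me3 in both genotypes (grey bars, genes per bin of 0.1) and for the 10 genes (points, at arbitrary height), with dashed lines at 1.5-fold; Zfp42 (0.268) and Tfcp2l1 (0.426) lie left of the lower line and the other 8 lie between the lines.

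Pou5f1, the POU-domain factor without which the pluripotent lineage is not formed, lies on the plus strand of chromosome 17 (GRCm38, 35506018 to 35510772). Its promoter peak of H3K4me3 was 10799 bp wide in wild-type and 9221 bp in gene-trap cells, and covered the whole gene in both. Upstream of the start site the peak reached 4073 bp and 4005 bp, and downstream 6725 bp and 5215 bp, so the width differed mainly on the downstream side. All H3K4me3 within 20 kb summed to 18547 bp and 17863 bp, a ratio of 0.963. Part of that is shared with neighbours: a peak of 6054 bp in wild-type and 4315 bp in gene-trap cells lay at the promoters of Tcf19 and Cchcr1, and without it the ratio was 1.08. That ratio includes an intergenic peak of 2090 bp, from 16002 to 13913 bp upstream, which was called in gene-trap cells only. For the promoter peak alone the ratio of widths was 0.854. The nearest MTF2 peak lay 34.6 kb upstream, over H2-Q10, a class I histocompatibility gene.

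Nanog, a homeodomain factor that sustains self-renewal, lies on the plus strand of chromosome 6 (122707489 to 122714633) and has 3 start sites within a short stretch. Its promoter peak was 11428 bp wide in wild-type and 9024 bp in gene-trap cells and covered the whole gene in both. It was narrower at either end, reaching 2271 and then 1557 bp upstream of the first start site, and 9156 and then 7466 bp downstream. A separate upstream peak, between 5954 and 3103 bp before the start in wild-type cells, was 2852 bp wide there and 2293 bp in gene-trap cells. Both smaller peaks farther upstream were found in both genotypes, at 725 and 840 bp in wild-type cells and 938 and 810 bp in gene-trap cells. The sum within 20 kb was 15845 bp and 13065 bp, a ratio of 0.825, lower than at 7 others of the 10 genes. The nearest MTF2 peak lay 78.6 kb upstream, inside Dppa3.

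The Nanog promoter is shown because it holds the joint site read by SOX and POU factors. The 250 bases before the first RefSeq start site (GRCm38.p6, chr6:122707239-122707488, plus strand) follow in lower case, with the octamer core (ATGCAAA, or TTTGCAT on the other strand) and the SOX core (CATTGT, or ACAATG on the other strand) in capitals.
Nanog promoter: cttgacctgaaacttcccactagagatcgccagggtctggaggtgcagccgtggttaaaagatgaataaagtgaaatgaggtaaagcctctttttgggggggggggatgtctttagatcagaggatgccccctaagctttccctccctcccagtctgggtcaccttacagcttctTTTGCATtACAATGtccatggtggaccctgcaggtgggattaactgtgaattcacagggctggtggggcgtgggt
Both cores stand 1 base apart here. The joined motif, CATTGTNATGCAAA on either strand, was found in 2 of 32851 RefSeq promoters of 300 bases (0.00609%), and these are the overlapping promoters of Nanog's own start sites, in which it begins 75 bases before the first. The octamer core alone was found in 4.63% of promoters and the SOX core alone in 12.6%. Among the genes described here that have a RefSeq promoter, the octamer core also occurred at Sox2 and Zfp42, and the SOX core at Lin28a, at the first start site of Esrrb and at the second RefSeq promoter of Pou5f1. A match of letters is a description of the sequence and not a measured binding site.

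Sox2, the HMG-box partner of the Pou5f1 product, lies on the plus strand of chromosome 3 (34650405 to 34652461), inside the long noncoding transcript Sox2ot. Its promoter had no MTF2, EZH2 or H3K27me3 peak, but Polycomb peaks flanked the gene on either side in wild-type cells. Upstream, an MTF2 peak of 607 bp ended 7871 bp before the start site, with an EZH2 peak of 269 bp and an H3K27me3 peak of 2056 bp over the same place, in an intron of Sox2ot. Downstream, an MTF2 peak of 226 bp began 12420 bp after the start site, with EZH2 peaks of 307, 330 and 311 bp and an H3K27me3 peak of 3643 bp around it. In gene-trap cells neither EZH2 nor H3K27me3 was called on either side, and the nearest H3K27me3 peak lay 4135 kb away. Sox2, Esrrb, Prdm14 and Dppa3 were the 4 genes of the 10 with an MTF2 peak within 20 kb, against 22.4% of all genes. The same 4 had EZH2 within 20 kb, against 23.5%, and H3K27me3, against 28.1%. In gene-trap cells none had EZH2 within 20 kb, against 1.23% of all genes, and Esrrb alone had H3K27me3, against 3.94%.

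H3K4me3 at Sox2 differed between the genotypes in outline, with a nearly equal total length. In wild-type cells the promoter peak ran from 4450 bp upstream to 8047 bp downstream (12498 bp), and a second peak of 6771 bp ran from 9549 to 16319 bp downstream, over the downstream MTF2 peak. In gene-trap cells a single peak of 18435 bp ran from 2422 bp upstream to 16012 bp downstream. It was wider than the promoter peaks of all but 13 of the 14438 genes with such a peak, while in wild-type cells 245 of 14306 genes had a wider peak than Sox2. The upstream H3K4me3 peak, over the other MTF2 peak, was 2853 bp in wild-type and 4910 bp in gene-trap cells. The sum within 20 kb was 24445 bp and 24623 bp, a ratio of 1.01.

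Both MTF2 peaks at Sox2 are shown because they are the closest Polycomb sites to that gene and lie outside its promoter. The sequences are read on the plus strand of GRCm38 from the central 300 bases of the upstream peak (chr3:34642081-34642380) and the whole downstream peak (chr3:34662825-34663050), with every GCG, or CGC for the other strand, in capitals.
Sox2 upstream MTF2 peak: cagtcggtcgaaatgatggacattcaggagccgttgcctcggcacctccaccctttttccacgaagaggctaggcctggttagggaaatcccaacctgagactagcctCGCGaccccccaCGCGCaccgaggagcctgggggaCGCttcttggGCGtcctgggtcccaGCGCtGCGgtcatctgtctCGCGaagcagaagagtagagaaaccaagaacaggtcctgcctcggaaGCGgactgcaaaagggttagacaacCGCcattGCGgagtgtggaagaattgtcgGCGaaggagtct
Sox2 downstream MTF2 peak: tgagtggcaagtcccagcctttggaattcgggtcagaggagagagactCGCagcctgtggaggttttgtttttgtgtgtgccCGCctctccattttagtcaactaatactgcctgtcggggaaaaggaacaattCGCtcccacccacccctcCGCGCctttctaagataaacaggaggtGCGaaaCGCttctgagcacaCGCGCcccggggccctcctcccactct
The stretch of 300 bases held 22 CpG and 16 GCG on either strand, and that of 226 bases held 12 CpG and 11 GCG. A GCG on either strand is common to such regions, being present in 99.1% of all 6357 MTF2 peaks. Per 100 bp, the full peaks held 6.43 and 5.31 CpG, against a median of 6.37 over all MTF2 peaks.

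Klf4, a Krüppel-like zinc-finger factor and a member of the reprogramming set, lies on the minus strand of chromosome 4 (55527143 to 55532466). Its promoter peak of H3K4me3 was 8872 bp wide in wild-type and 7492 bp in gene-trap cells and covered the whole gene in both. The peak began 2372 and 1818 bp upstream and ended 6499 and 5673 bp downstream. A second peak near 17 kb downstream was 1168 and 1304 bp wide. The sum within 20 kb was 10040 bp and 8796 bp, a ratio of 0.876. No Polycomb peak lay near the gene, the nearest MTF2 peak being 119 kb upstream in intergenic sequence.

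The absence of MTF2 at Klf4 and Sox2 stood beside a very high CpG content. Within 1 kb of the start site Klf4 held 8.95 CpG per 100 bp and Sox2 8.55, higher than 97.6% and 96.8% of 41408 protein-coding start sites. The median was 5.10 over the 5773 start sites with an MTF2 peak within 1 kb and 2.55 over the 35635 without. Klf4 held 159 GCG on either strand in this window and Sox2 133. The Klf4 promoter, the 250 bases before the RefSeq start site (GRCm38.p6, chr4:55532476-55532725, minus strand), is shown as a stretch dense in GCG at which no MTF2 peak was called, with GCG and CGC in capitals.
Klf4 promoter: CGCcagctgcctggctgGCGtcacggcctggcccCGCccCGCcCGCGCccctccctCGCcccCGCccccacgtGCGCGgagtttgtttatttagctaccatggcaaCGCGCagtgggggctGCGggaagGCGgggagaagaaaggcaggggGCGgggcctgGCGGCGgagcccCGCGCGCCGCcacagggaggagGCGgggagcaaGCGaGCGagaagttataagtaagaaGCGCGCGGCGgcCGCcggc
It held 32 CpG and 36 GCG on either strand.

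**Figure D3:**
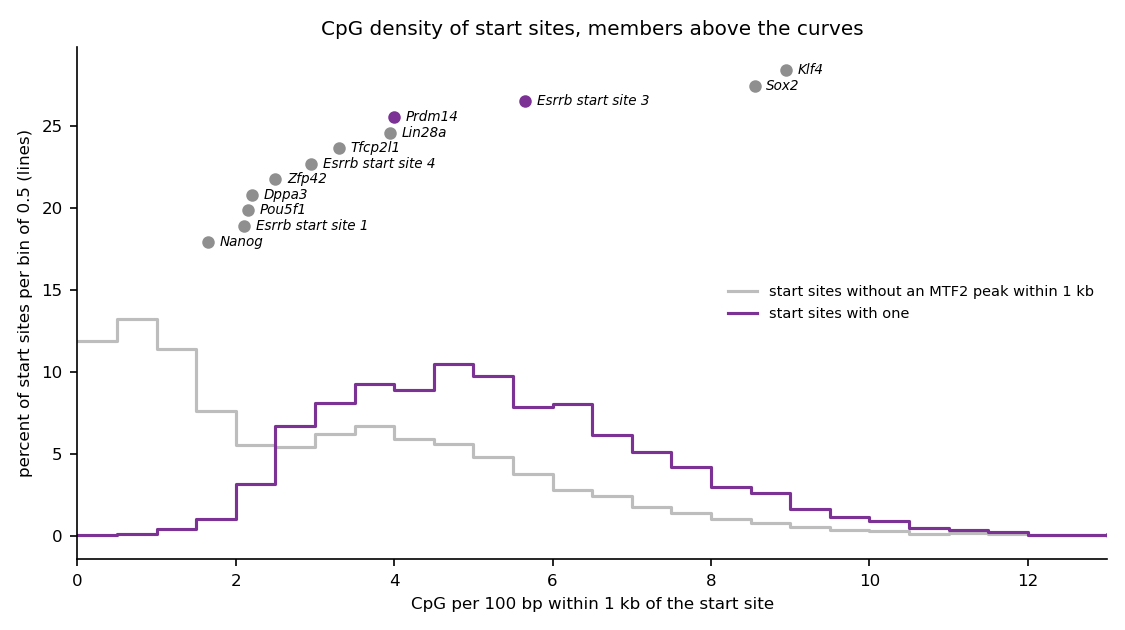
CpG per 100 bp within 1 kb of the start site (x axis) for protein-coding start sites with an MTF2 peak within 1 kb (purple line) and without (grey line), as percent of start sites per bin of 0.5; points at arbitrary height mark the start sites of the 10 genes, purple where MTF2 was called, with neighbouring start sites of a gene drawn once. Klf4 (8.95) and Sox2 (8.55) lie far to the right without MTF2, while the marked start sites of Esrrb (5.65 at start site 3) and Prdm14 (4.00) lie near the middle. In the bin that holds Klf4 and Sox2, 150 start sites had MTF2 and 280 had none.

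Esrrb, an orphan nuclear receptor of the naive network, was the gene with the most complex picture. It lies on the plus strand of chromosome 12 (86361117 to 86521628) and has 4 start sites. No peak of any list touched the promoter at the first, at 86361117. At the second and the third, at 86421644 and 86421883, all 4 wild-type lists had a peak: MTF2 of 2366 bp, EZH2 of 2434 bp, H3K27me3 of 8793 bp and H3K4me3 of 2778 bp. At the fourth, at 86470117, only H3K4me3 was called, in a peak of 36617 bp that only 6 genes exceeded in wild-type cells. Polycomb peaks and the broad H3K4me3 domain thus lay at different start sites of the same gene.

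In gene-trap cells the domain at the second and the third start sites was called over less sequence. EZH2 was not called, H3K27me3 remained in a peak of 3046 bp, 34.6% of the wild-type domain, and H3K4me3 was 1796 bp wide. The gene-trap H3K27me3 peak began just downstream of the second start site and reached 2862 bp beyond the third. A further wild-type H3K27me3 peak of 2268 bp in the intron before the second start site had no counterpart. At the fourth start site the H3K4me3 peak reached 7197 bp upstream in wild-type and 7218 bp in gene-trap cells. Downstream it reached 29419 bp and 14260 bp, followed in gene-trap cells by a separate peak of 7697 bp. With a further peak beyond 20 kb of the start site, 3 gene-trap peaks together covered 32074 bp, or 87.6%, of the wild-type peak.

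The sum of H3K4me3 within 20 kb of the Esrrb start sites was 30933 bp and 27841 bp, a ratio of 0.900. That window ends before the end of the broad domain: within 50 kb the lengths were 60083 and 41710 bp, a ratio of 0.694. H3K4me3 covered 37.4% of the gene in wild-type and 26.0% in gene-trap cells.

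The Polycomb start region of Esrrb is shown in 2 stretches, both on the plus strand: the 250 bases before the second start site (GRCm38.p6, chr12:86421394-86421643) and the central 300 bases of the MTF2 peak downstream of it (GRCm38, chr12:86422369-86422668), with GCG and CGC in capitals.
Esrrb promoter: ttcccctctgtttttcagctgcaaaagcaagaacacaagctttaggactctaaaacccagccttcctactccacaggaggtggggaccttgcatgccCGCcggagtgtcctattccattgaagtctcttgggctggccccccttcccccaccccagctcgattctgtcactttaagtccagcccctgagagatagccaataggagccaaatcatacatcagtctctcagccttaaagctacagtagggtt
Esrrb MTF2 peak: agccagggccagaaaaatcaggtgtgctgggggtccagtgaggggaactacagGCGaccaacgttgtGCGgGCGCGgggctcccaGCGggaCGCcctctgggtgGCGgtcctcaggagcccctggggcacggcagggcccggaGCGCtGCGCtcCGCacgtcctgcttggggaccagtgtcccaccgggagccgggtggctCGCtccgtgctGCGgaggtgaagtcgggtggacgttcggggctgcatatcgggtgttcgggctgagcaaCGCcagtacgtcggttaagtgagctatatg
The upstream stretch held 3 CpG and 1 GCG on either strand, and the centre of the peak held 27 and 16. The MTF2 peak itself began 308 bp upstream of the second start site and ended 2057 bp downstream, and 98.7% of it was covered by the EZH2 peak.

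Tfcp2l1, a Grainyhead-family factor downstream of LIF signalling, was the gene with the second lowest ratio. It lies on the plus strand of chromosome 1 (118627946 to 118685168). Its promoter peak of H3K4me3 was 9598 bp wide in wild-type and 3855 bp in gene-trap cells. It was shorter at both ends, reaching 2030 and 437 bp upstream and 7567 and 3417 bp downstream. A second peak inside the gene, which began 13861 bp downstream in wild-type and 17154 bp in gene-trap cells, was 11315 and 7523 bp wide. The sum within 20 kb was 15738 bp and 6702 bp, a ratio of 0.426, lower than at all but 5.14% of genes. No MTF2 peak lay within 1379 kb.

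Zfp42, also called Rex1, a zinc-finger gene whose loss of expression is a standard sign of exit from the naive state, had the lowest ratio of the 10. It lies on the minus strand of chromosome 8 (43295063 to 43306980). In wild-type cells a single H3K4me3 peak of 21983 bp ran from 4821 bp upstream to 17161 bp downstream and covered the whole gene. In gene-trap cells the promoter peak was 4785 bp wide, from 1024 bp upstream to 3760 bp downstream, and a separate peak of 1109 bp lay near the 3′ end. Gene-trap peaks covered 40.9% of the gene. The sum within 20 kb was 21983 bp and 5894 bp, a ratio of 0.268, lower than at all but 2.29% of genes. In wild-type cells 44 genes had a wider promoter peak than Zfp42, and in gene-trap cells 1305 did. The nearest MTF2 peak lay 2026 kb away and the nearest H3K27me3 peak 1673 kb away.

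Both genes were above the 90th percentile of all genes by wild-type H3K4me3 within 20 kb (11649 bp). Of the 1640 genes above it, 36.4% were lower by 1.5-fold, against 16.6% of all genes. Of the 10 genes 6 were above it, and the other 4 of these, Pou5f1, Nanog, Sox2 and Esrrb, had ratios from 0.825 to 1.01.

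The Zfp42 promoter is shown for its octamer core. The sequence is the 250 bases before the RefSeq start site (GRCm38.p6, chr8:43307010-43307259, minus strand), with octamer and SOX cores in capitals.
Zfp42 promoter: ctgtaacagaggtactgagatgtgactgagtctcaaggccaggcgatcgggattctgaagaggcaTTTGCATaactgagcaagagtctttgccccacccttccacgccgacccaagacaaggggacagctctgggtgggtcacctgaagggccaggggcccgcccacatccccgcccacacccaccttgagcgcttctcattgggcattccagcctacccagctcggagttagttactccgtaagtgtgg
It held 1 octamer core and no SOX core, and the stretch lies within the wild-type H3K4me3 peak and within the gene-trap peak.

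Prdm14, a PR-domain factor that restrains FGF signalling and DNA methylation in naive cells, lies on the minus strand of chromosome 1 (13113457 to 13127163). Its Polycomb peaks were small and lay just downstream of the start site. MTF2 peaks of 508 and 501 bp began 739 and 1484 bp downstream, the nearer in an intron, and EZH2 peaks of 332, 405 and 446 bp began 757, 1360 and 1833 bp downstream. An H3K27me3 peak of 3006 bp ran from 327 to 3332 bp downstream. All lay inside the H3K4me3 peak, and H3K27me3 covered 56.7% of it. In gene-trap cells neither EZH2 nor H3K27me3 was called, and the nearest H3K27me3 peak lay 5978 kb away. The H3K4me3 peak was 5301 bp in wild-type and 5061 bp in gene-trap cells, a ratio of 0.955, and the gene had no other H3K4me3 within 20 kb.

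The remaining genes encode proteins that are not sequence-specific transcription factors. Dppa3, also called Stella, which protects the maternal genome from demethylation in the early embryo, lies on the plus strand of chromosome 6 (122626410 to 122630272). It had the widest H3K27me3 promoter peak of the 10 genes, 13636 bp, from 7802 bp upstream to 5833 bp downstream, over the whole gene. An MTF2 peak of 405 bp and EZH2 peaks of 190 and 549 bp lay inside the gene, from 1612 bp downstream, which puts them outside the 1 kb window. By the EZH2 peak nearest to the start site, Prdm14 at 757 bp lay inside that limit and Dppa3 at 1612 bp outside it. EZH2 peaks covered 5.42% of the H3K27me3 domain. In gene-trap cells neither EZH2 nor H3K27me3 was called there. The H3K4me3 peak was 2949 bp in wild-type and 3172 bp in gene-trap cells, and the sum within 20 kb was 7162 and 7804 bp, a ratio of 1.09. Of that sum, 4213 and 4179 bp lay at the promoter of Gdf3, a TGF-beta family ligand, and without it the ratio was 1.23. The gene-trap sum also holds an intergenic peak of 453 bp, from 6693 bp downstream, with no wild-type counterpart. Counting only peaks of at least 500 bp, the ratio within 20 kb was 1.03, and the ratio of promoter peak widths was 1.08.

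Lin28a, an RNA-binding protein that blocks maturation of let-7 microRNAs, lies on the minus strand of chromosome 4 (134003330 to 134018841). Its promoter peak of H3K4me3 was 4825 bp in wild-type and 5196 bp in gene-trap cells. A second peak inside the gene was 4209 and 4464 bp wide, and another, of 2193 and 1409 bp, lay at the promoter of the neighbour Dhdds. The sum within 20 kb was 11227 and 11069 bp, a ratio of 0.986, and without the Dhdds peak the ratio was 1.07. The nearest MTF2 peak lay 141 kb upstream, in an intron of Cep85.

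**Figure D4:**
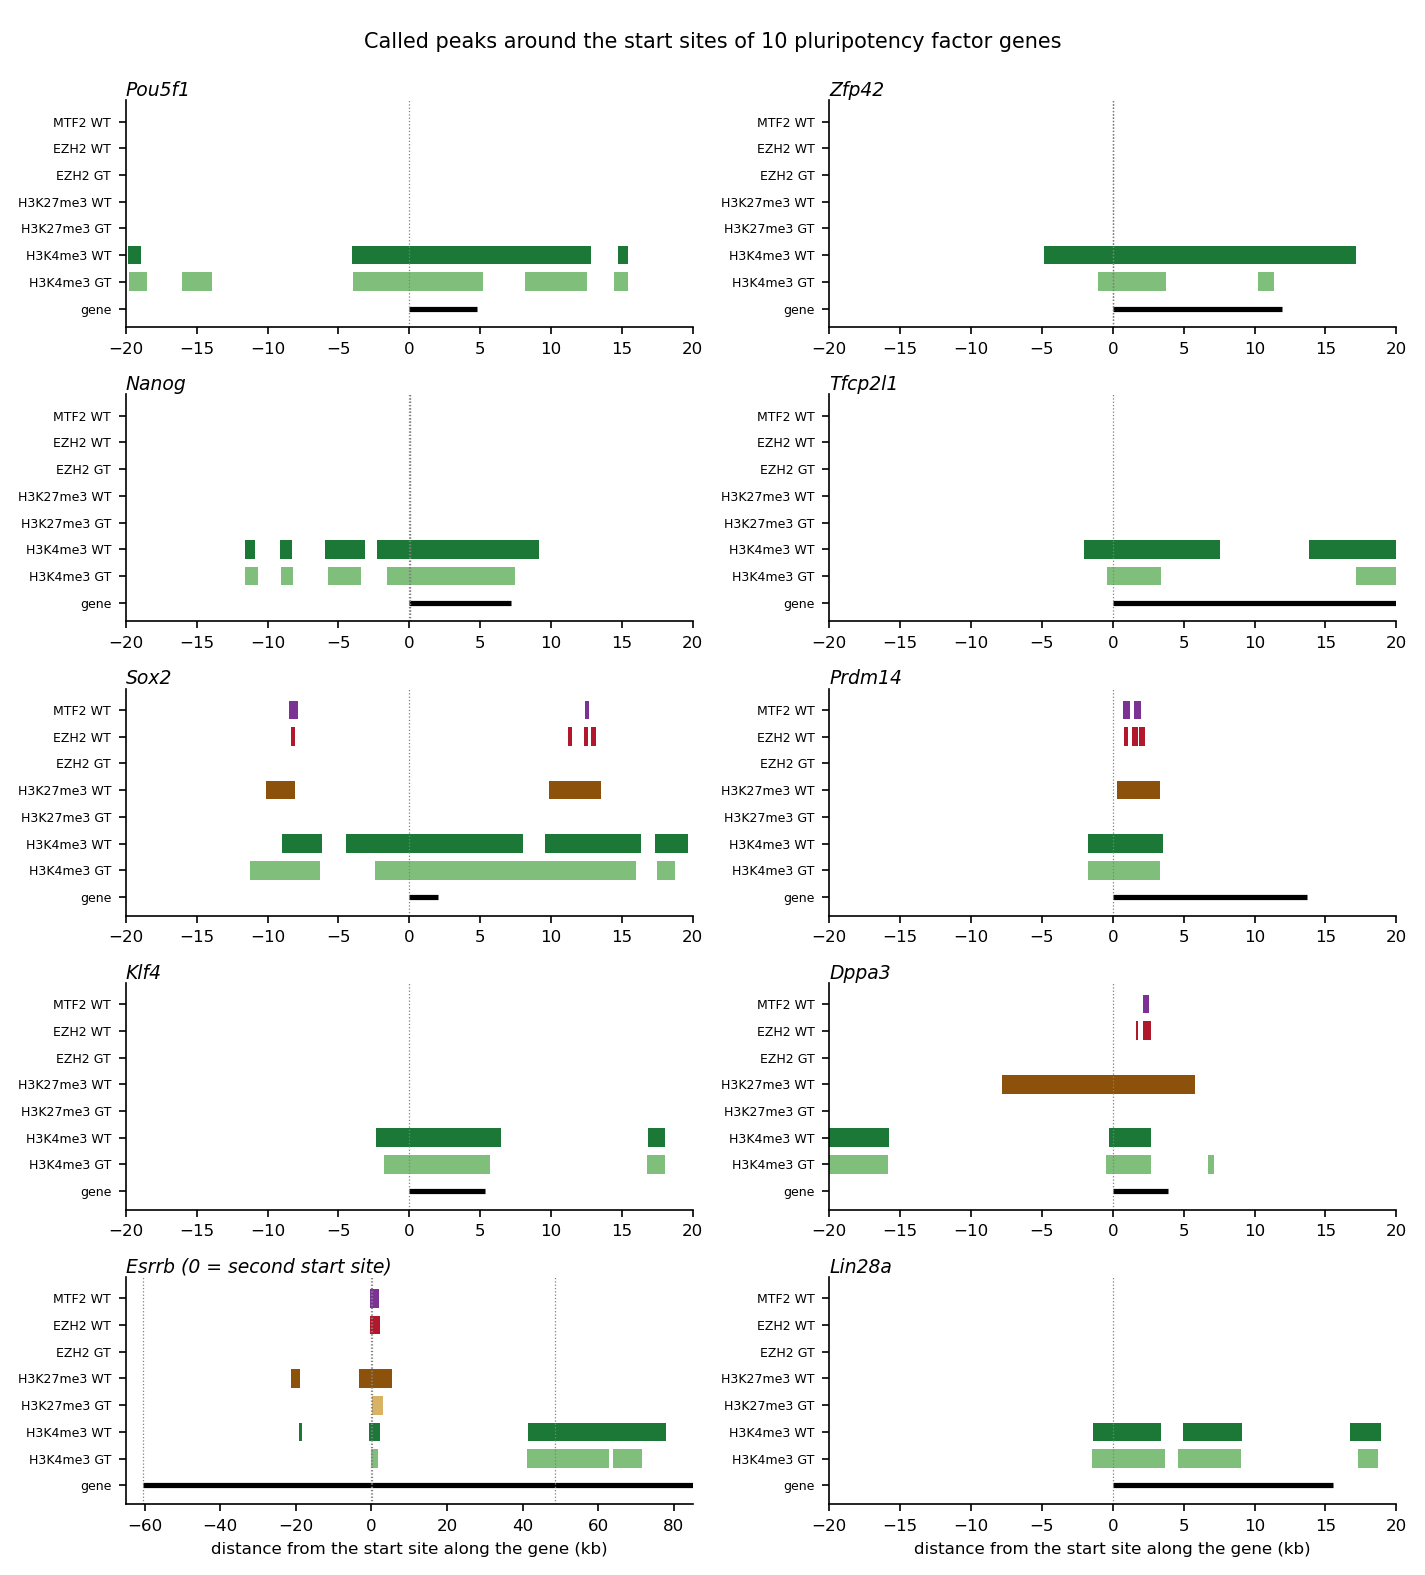
Called peaks around the start sites of the 10 genes, drawn along the direction of each gene (x axis, kb from the start site; for Esrrb, kb from the second start site over a longer stretch), with 1 row per peak list (WT, wild type; GT, Mtf2 gene trap), the gene in black and start sites as dotted lines. Only peaks that touch the 20 kb around a start site are drawn. The wild-type H3K4me3 bar of Zfp42, 21983 bp, stands above bars of 4785 and 1109 bp in gene-trap cells, and that of Tfcp2l1 is shorter at both ends, while Sox2 has a longer bar.

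Ordered by wild-type length of H3K4me3 within 20 kb, Esrrb came first, followed by Sox2, Zfp42, Pou5f1, Nanog, Tfcp2l1, Lin28a, Klf4, Dppa3 and Prdm14. In gene-trap cells the order was Esrrb, Sox2, Pou5f1, Nanog, Lin28a, Klf4, Dppa3, Tfcp2l1, Zfp42 and Prdm14. Esrrb was also the gene measured over the most sequence, 120242 bp. Zfp42 stood above 7 of the other genes in wild-type cells and above Prdm14 alone in gene-trap cells. Nanog and Tfcp2l1 were close in wild-type cells, at 15845 and 15738 bp, and whether such neighbours differ cannot be said without replicate values. Of the 3 genes with wild-type H3K27me3 at a promoter, the ratios were 0.900, 0.955 and 1.09, none past 1.5-fold. Of the 7 without it, 2 were lower, Zfp42 and Tfcp2l1, against 16.6% of all genes. Both were above the 90th percentile of wild-type length, where 36.4% of genes were lower. Whether the ratios differ with H3K27me3 was not tested.

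Among 25 network partners, other genes linked to the pluripotency network or its signals, H3K4me3 lay at all promoters in both genotypes. Polycomb peaks in wild-type cells were found at 1, Gbx2, a homeobox gene downstream of LIF, with MTF2 of 386 bp, EZH2 of 570 bp and H3K27me3 of 5746 bp. Neither EZH2 nor H3K27me3 was called there in gene-trap cells. Tbx3, a T-box factor, had an EZH2 peak of 275 bp in gene-trap cells only. H3K4me3 length was lower by 1.5-fold at 6 of the 25, against 16.6% of all genes. It was higher at none, against 4.26%, and the median ratio was 0.815. Of the 25, 14 were above the 90th percentile of wild-type length, where 36.4% of genes were lower. The longest wild-type sums within 20 kb were at Tet1, Tbx3 and Zfp57, in 2, 3 and 3 peaks. Tet1, which oxidises methylcytosine, had 43576 bp and 30340 bp in gene-trap cells, Tbx3 29614 and 17614 bp, and Zfp57 22821 and 19187 bp. The shortest sums were at Dppa4 (3903 and 4238 bp), Nr0b1 (4532 and 4440 bp) and Zfp281 (5787 and 5503 bp).

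Of 12 formative and primed genes, which are active or rise as cells leave the naive state, 10 had MTF2, EZH2 and H3K27me3 at the promoter in wild-type cells: Fgf5, Otx2, Pou3f1, Dnmt3a, Dnmt3b, Foxd3, Lef1, Sall2, Sox3 and Cdh2. EZH2 was still called in gene-trap cells at 2, Otx2 (366 bp) and Lef1 (402 bp), and H3K27me3 at 3, Otx2 (18086 bp), Lef1 (10680 bp) and Pou3f1 (1298 bp). The H3K4me3 length was longer at 9 of the 12, with a median ratio of 1.07. It was longer at 29.3% of all genes and at 50.4% of genes with wild-type H3K27me3 at the promoter. The only ratio past 1.5-fold was at Fgf5, the ligand that marks primed cells, with 1268 and 2462 bp, a ratio of 1.94. The longest sums within 20 kb were at Foxd3 (14215 and 13426 bp), Otx2 (12674 and 13292 bp) and Dnmt3l (12212 and 17106 bp). In wild-type cells those of Otx2 and Dnmt3l were spread over 6 and 4 peaks, with widest promoter peaks of 4114 and 4862 bp. The shortest sums besides Fgf5 were at Sox3 (3260 and 4597 bp) and Cdh2 (3313 and 3116 bp).

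Paralogs of the 10 genes carried Polycomb peaks at 5 of 14 promoters in wild-type cells, Pou3f1, Sox1, Sox3, Esrrg and Prdm6, each with MTF2, EZH2 and H3K27me3. Sox1 and Sox3, neural relatives of Sox2, had MTF2 peaks of 3121 and 3501 bp at the promoter, where Sox2 had none. Esrrg, a relative of Esrrb, had H3K27me3 of 10793 bp and a short H3K4me3 length of 1726 bp, which was 3839 bp in gene-trap cells, a ratio of 2.22. Esrra, a broadly active relative, had no Polycomb peak and 11215 and 10453 bp of H3K4me3. H3K27me3 was still called in gene-trap cells at Sox1 (13971 bp), Prdm6 (10701 bp) and Pou3f1, and EZH2 at Prdm6 (294 bp). Length was lower by 1.5-fold at 3 paralogs, against 16.6% of all genes, and higher at 1, against 4.26%. The median ratio was 0.904. Klf5 (18252 and 14466 bp) and Yy1, a relative of Zfp42 (14211 and 6397 bp), had the longest summed lengths with Esrra. In wild-type cells the length at Esrra was spread over 5 peaks, and its widest promoter peak was 2617 bp. Tfcp2 (2050 and 1761 bp) was among the shortest by summed length. Sox3 and Pou3f1 also stand in the formative list, and Klf2 and Klf5 among the partners.

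**Figure D5:**
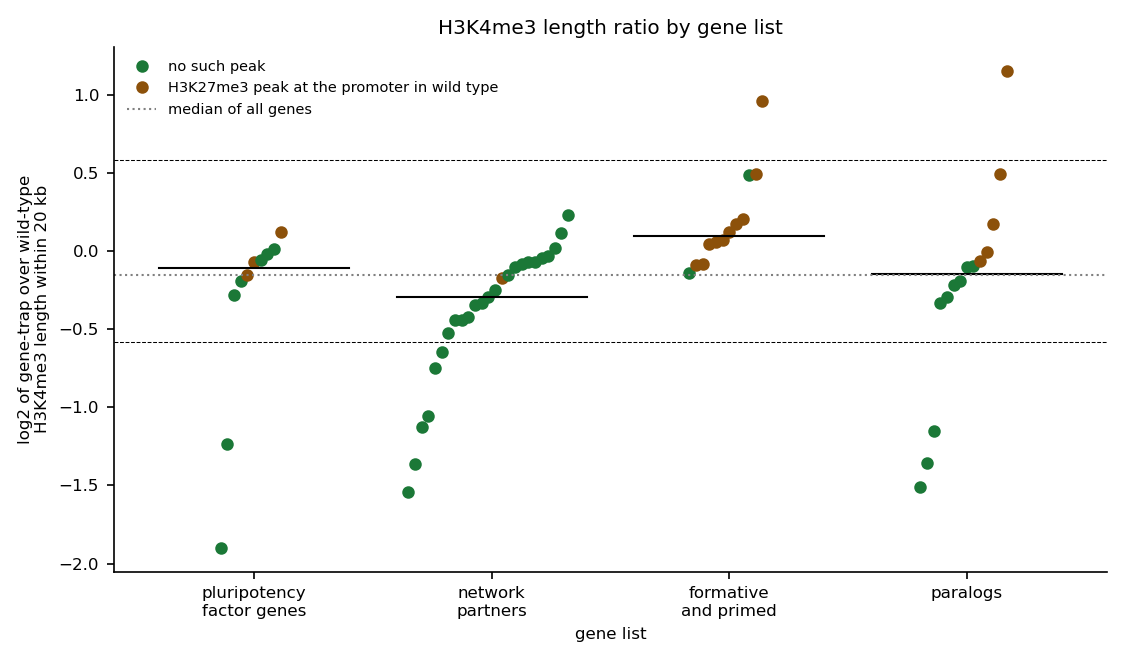
Log2 of the ratio of H3K4me3 length within 20 kb (gene trap over wild type) for each gene of 4 lists; points are genes in order of their ratio, brown where H3K27me3 was called at the promoter in wild-type cells. Solid bars are list medians (0.927, 0.815, 1.07 and 0.904 as ratios), the dotted line is the median of all genes (0.899) and dashed lines mark 1.5-fold; Zfp42 is the lowest point.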

How the data were processed

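ChIP-seq peak lists of MTF2, EZH2, H3K27me3 and H3K4me3 were used. A NextSeq read the libraries, which a Kapa kit had produced, per the labels. The submitters' processing notes name MACS2 2.7, BWA 0.7.10-r789, CASAVA and the build mm10 (GRCm38), without role or order. Thresholds, controls and the way the libraries of a group were combined are not given in the sources used here. The values deposited by the authors are the chromosome, start and end of each region in bp, with no height, score or p-value. No depth is known, so no interval or detection limit was set. A peak absent from a list may lie under its threshold.

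Start sites and genes came from GENCODE M21 (21827 protein-coding genes), promoter sequences from RefSeq (GRCm38.p6, matched for 8 of the 10 genes, with all 11 promoters identical in the genome) and other sequence from GRCm38. Overlaps and lengths were computed with Python 3.11.15 and numpy 2.4.6, checked on simulated intervals. Figures were drawn with matplotlib 3.10.9. With 1 list per group a ratio of 1.5 was the call, and no test was run. CpG and GCG were counted in the window of 1 kb on either side of a start site or in the whole MTF2 peak.

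The members and lists were chosen with earlier results of these data known. All members are named. From the other lists, genes with an MTF2, EZH2 or H3K27me3 promoter peak and the 3 longest and 3 shortest H3K4me3 lengths are named, and from elsewhere only neighbours at a shared peak or window or at the nearest Polycomb peak. Lifr, Il6st and Stat3, chosen after their values were seen, and Klf2, named only as a gene of 2 lists, fall outside this rule.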

Additional observations from a re-analysis of the deposited data

How the results depend on the processing

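Of 145 recomputed values, 134 kept their call or stayed within 1.5 times the reported count and 11 counts moved by more. Part of the 134 could not change. The first start site alone changes nothing at a gene with 1 start site, nor does leaving out peaks at other promoters where there are none. The minimum width of 500 bp changed the length ratio of Dppa3 alone among the 10 genes. The tally is therefore no measure of robustness. No gene called lower or higher changed direction, but uncalled ratios near 1 did: Pou5f1 went from 0.963 to 1.06 within 50 kb and 1.08 without peaks at other promoters, Lin28a from 0.986 to 1.07 within 10 kb and without such peaks, and Sox2 from 1.01 to 0.951 within 50 kb. Of the 10 genes, 8 were shorter and 2 longer as reported, 7 and 3 within 10 kb, 8 and 2 within 50 kb, and 6 and 4 without peaks at other promoters. Zfp42 and Tfcp2l1 were lower by 1.5-fold in every alternative run for them, with ratios from 0.218 to 0.322 and from 0.402 to 0.511. Only the windows of 10 kb and 50 kb changed the lengths at these genes. The first start site alone, the minimum width and leaving out peaks at other promoters returned the reported lengths. With the start site itself inside the peak, MTF2 and EZH2 each lay at 1 of the 10 promoters, Esrrb. With peaks of at least 500 bp, wild-type EZH2 lay at 1 promoter and within 20 kb of 2 genes. Among network partners the counts became 0 for MTF2 and 0 for gene-trap EZH2 with that minimum, and 2 for wild-type and 1 for gene-trap H3K27me3 with a promoter window of 2.5 kb. Gene-trap EZH2 became 0 for the formative genes and 0 for the paralogs with peaks of at least 500 bp, and 2 for the paralogs with 2.5 kb. For these counts the cause is the changed window or the minimum width. Division by the median ratio of all genes was chosen after seeing the data and moved no call. The first start site of Esrrb alone gave no length in either genotype. All MTF2 and EZH2 peaks near Sox2, Prdm14 and Dppa3 were 190 to 607 bp wide, and how they would fare at another peak-calling threshold was not tested. No paired analysis was possible because each list stands for both libraries of its group.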

Other observations

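H3K4me3 length was lower by 1.5-fold at 6 of the 25 network partners, against 16.6% of all genes. Of these 6, 3 act in LIF signalling, and they are named because of their values, which were seen first. Lifr, the LIF receptor, had 16349 bp of H3K4me3 within 20 kb in wild-type and 5609 bp in gene-trap cells, a ratio of 0.343. Il6st, its co-receptor gp130, had 10145 and 4659 bp, a ratio of 0.459. Stat3, the transcription factor that the receptors activate, had 8927 and 3467 bp, a ratio of 0.388. These sums include peaks away from the promoter. Peaks in the window numbered 6 and 1 at Lifr, 2 and 1 at Il6st, and 3 and 2 at Stat3. The widest promoter peak was 7569 and 5609 bp at Lifr (ratio 0.741), 5924 and 4659 bp at Il6st (0.786), and 5769 and 2429 bp at Stat3 (0.421). None of the 3 genes had a promoter peak of MTF2 in wild-type cells, or of EZH2 or H3K27me3 in either genotype. Lifr, but not Il6st or Stat3, was above the 90th percentile of wild-type length, where 36.4% of genes were lower. Of the genes named above as downstream of LIF, Gbx2 was not called, at a ratio of 0.887, and Tfcp2l1 was lower, at 0.426. Whether genes of LIF signalling differ as a set was not tested.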
